A study of Homo sapiens with 36 samples.

Results

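The circadian clock repressors were examined in 2 human colorectal cancer cell lines exposed to 2 chemical inducers of the hypoxia response. The set held 10 of the 60591 genes of the mRNA count table: the repressors BHLHE40, BHLHE41, PER1, PER2, PER3, CRY1, CRY2 and NR1D1, the activator CLOCK and the output factor DBP. It was taken by gene symbol, with earlier results of these data known. All 10 were found in the table and passed the filter on low counts in both lines. Caco-2 was used after 21 days of differentiation into an enterocyte-like layer, whereas no such step is labelled for HT-29, so cell line and culture state cannot be told apart. Cells of each line received cobalt chloride (CoCl2) at 300 µM, the oxyquinoline derivative 4896-3212 (OD) at 5 µM in dimethyl sulfoxide (DMSO), or 0.5 µl DMSO per ml of medium as control, each for 24 h. CoCl2 and OD act as chemical mimics of hypoxia, since they inhibit the enzymes through which oxygen marks hypoxia-inducible factor (HIF) for breakdown. Each of the 6 groups had 3 mRNA libraries, described as biological replicates, of 12925719 to 22332639 counts. The sources used here differ on whether the CoCl2 medium held DMSO, so the solvent and CoCl2 cannot be told apart. They give no synchronising step and no hour of harvest, so each value is a level after 24 h in a culture of unknown clock phase.

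The clock of mammalian cells is a feedback loop of transcription factors. CLOCK pairs with BMAL1, the product of ARNTL, and activates genes through the E-box CACGTG. Among these genes are PER and CRY, whose proteins return to the nucleus and block CLOCK and BMAL1, and NR1D1, whose product REV-ERBα represses ARNTL. BHLHE40 and BHLHE41 (also named DEC1 and DEC2) are E-box binding repressors, and BHLHE40 is a well-known target of HIF, which binds a core of ACGTG or, with the first base replaced, GCGTG. DBP activates output genes through D-boxes such as TTATGTAA.

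Promoter sequences are shown for the genes whose promoter held a complete E-box, BHLHE40, BHLHE41 and PER1, and for NR1D1, which held 4 matches to the HIF core without an E-box. The windows are from RefSeq on GRCh38.p14 and run from 250 bases before to 50 bases after the transcription start, written 5′ to 3′ on the strand of the gene. Capitals mark the E-box and both forms of the HIF core on either strand. The HIF core reads CACGT where it lies on the other strand, and its GCGTG form then reads CACGC. Every E-box holds the ACGTG form on both strands. The windows are chr3:4979187-4979486, plus strand for BHLHE40, chr12:26124988-26125287, minus strand for BHLHE41, chr17:8152355-8152654, minus strand for PER1 and chr17:40100540-40100839, minus strand for NR1D1.
BHLHE40: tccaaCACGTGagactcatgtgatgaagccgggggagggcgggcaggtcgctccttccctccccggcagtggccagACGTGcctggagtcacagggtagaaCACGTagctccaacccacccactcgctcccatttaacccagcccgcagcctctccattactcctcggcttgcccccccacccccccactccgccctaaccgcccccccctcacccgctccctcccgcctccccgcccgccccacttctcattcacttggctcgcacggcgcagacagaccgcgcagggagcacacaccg
BHLHE41: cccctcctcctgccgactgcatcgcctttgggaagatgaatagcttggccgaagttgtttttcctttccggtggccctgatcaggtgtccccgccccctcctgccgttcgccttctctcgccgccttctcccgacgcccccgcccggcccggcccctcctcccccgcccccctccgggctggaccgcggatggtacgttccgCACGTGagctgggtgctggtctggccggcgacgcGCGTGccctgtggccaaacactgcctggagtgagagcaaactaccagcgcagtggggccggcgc
PER1: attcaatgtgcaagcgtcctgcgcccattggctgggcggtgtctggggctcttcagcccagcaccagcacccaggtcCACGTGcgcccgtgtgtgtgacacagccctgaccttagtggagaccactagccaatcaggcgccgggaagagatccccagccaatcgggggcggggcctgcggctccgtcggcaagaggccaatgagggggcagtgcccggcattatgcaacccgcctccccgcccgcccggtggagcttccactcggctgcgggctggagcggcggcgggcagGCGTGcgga
NR1D1: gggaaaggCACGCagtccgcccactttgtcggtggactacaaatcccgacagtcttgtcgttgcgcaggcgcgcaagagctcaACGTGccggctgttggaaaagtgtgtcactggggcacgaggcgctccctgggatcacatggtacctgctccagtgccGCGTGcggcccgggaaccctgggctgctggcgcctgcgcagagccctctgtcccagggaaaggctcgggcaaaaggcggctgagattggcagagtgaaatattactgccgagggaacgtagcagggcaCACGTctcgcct
The E-box began at position -245 from the start of BHLHE40, at -48 in BHLHE41 and at -173 in PER1. BHLHE40 also held ACGTG at -174 and, on the other strand, at -149. In NR1D1, ACGTG stood at -167 and 38 and GCGTG at -242 and -90.

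All 10 genes had a window, and CLOCK, PER3 and CRY2 had 2 each. CACGTG was found in 3 of the 10 genes, against 7.2% of 34796 windows of the same length over all genes. ACGTG was found in 8 genes, PER3 and DBP being the exceptions, against 21.4% of windows. GCGTG was found in 7 genes, against 36.4% of windows. The D-box TTATGTAA was found in PER3 only, against 0.877% of windows, and AGGTCA, the core of many nuclear receptor sites, in PER1 and CRY2, against 13.8%. The cyclic AMP response element TGACGTCA, present in 1.84% of windows, was in none of these windows. Each gene with 2 windows had 2 chances of a match, and a match describes letters only.

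A gene rose or fell where its false discovery rate (FDR, Benjamini-Hochberg over all genes tested) was under 0.05, and it was called where its absolute log2 fold change was also over 1. With CoCl2 in Caco-2, 4 of the 10 genes were called, all higher: BHLHE40, BHLHE41, PER1 and NR1D1. Of all 16034 genes tested there, 23.4% were called, and 9.13% were called higher. With OD in Caco-2, BHLHE40 and NR1D1 were called higher, 2 of 10 against 11.7% of all genes and 4.43% called higher. With CoCl2 in HT-29, 6 of 10 were called against 41.3% of 15812 genes. BHLHE40, PER1, CRY1 and CRY2 were higher, a direction taken by 17.4% of all genes, and PER2 and PER3 were lower, the direction of 23.9%. With OD in HT-29, BHLHE40, PER1, CRY2, NR1D1 and DBP were called, all higher, 5 of 10 against 17.1% of all genes and 9.5% called higher. In Caco-2, 8 genes passed by FDR alone under CoCl2 and 3 under OD, where 64.7% and 50.4% of all genes passed. In HT-29 all 10 passed with either agent, beside 82.8% of all genes with CoCl2 and 68.8% with OD. BHLHE40 was the gene called in all 4 comparisons. In Caco-2 the 10 genes had a median log2 fold change of 0.60 with CoCl2 and 0.24 with OD, where that of all genes was -0.029 and -0.023. The HT-29 medians were 0.22 with CoCl2 and 0.95 with OD, beside -0.032 and 0.0057 for all genes. The CoCl2 and OD comparisons of a line share their control libraries. In these bulk samples a lower value can come from fewer cells with the transcript or from less of it per cell, which cannot be told apart.

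**Figure D1:**
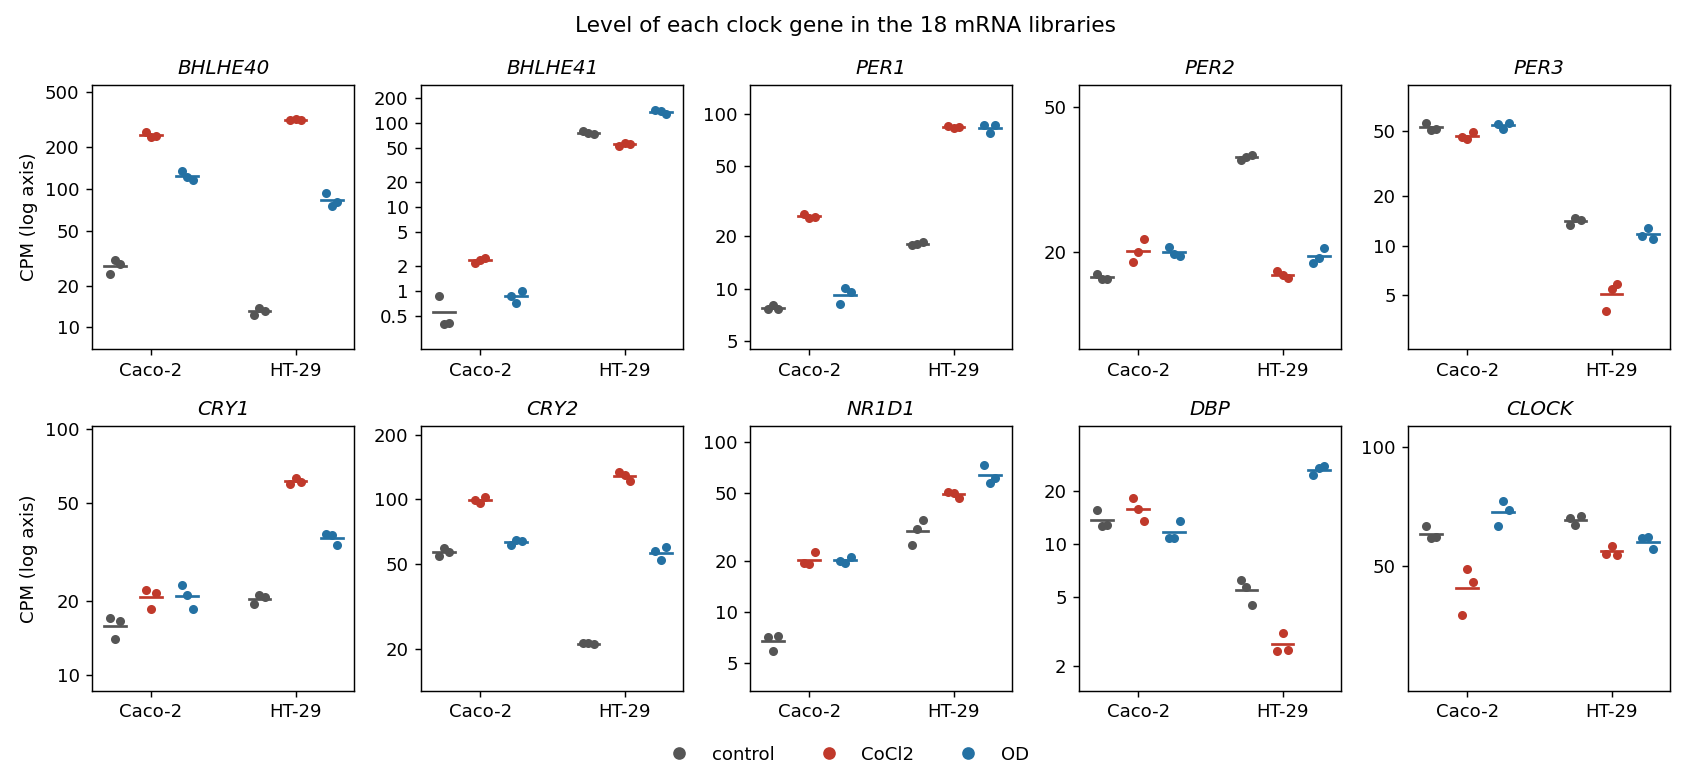
Levels of the 10 clock genes in the 18 libraries, in counts per 1000000 counts of the scaled library (CPM) on a log axis that differs between panels. Library sizes were scaled for composition within each line. Points are libraries and bars are group means (n = 3), with control in grey, CoCl2 in red and OD in blue. The CoCl2 and OD libraries of BHLHE40 lie above all control libraries of the same line, and DBP in HT-29 lies above control with OD and below it with CoCl2.

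BHLHE40 (chr3:4979437-4985323, plus strand; coordinates of GENCODE v44 on GRCh38 here and for the other genes) had the highest positive log2 fold change of the 10 genes in every comparison with control. In Caco-2, BHLHE40 stood at 24.2, 30.7 and 28.7 CPM in the control libraries, 258, 236 and 241 CPM with CoCl2 and 135, 123 and 116 CPM with OD. The 3 groups did not overlap, with OD between control and CoCl2. In HT-29, BHLHE40 stood at 12.2, 13.7 and 13.1 CPM in the control libraries, 315, 320.2 and 316 CPM with CoCl2 and 93.6, 75.6 and 80.5 CPM with OD. The order was the same, from lower controls to a higher level with CoCl2. BHLHE40 had a log2 fold change in Caco-2 of 3.14 (SE 0.093, FDR 6.45e-19) with CoCl2 and 2.16 (SE 0.091, FDR 1.64e-15) with OD. In HT-29 it was 4.60 (SE 0.072, FDR 4.03e-27) with CoCl2 and 2.67 (SE 0.074, FDR 5.92e-21) with OD. As ratios of group means these are 8.79 and 4.47 in the first line and 24.4 and 6.40 in the second. The study placed BHLHE40 and NR1D1 on its list of genes responding to both agents in Caco-2, which was made in part on these Caco-2 libraries, so their direction there is not independent evidence. BHLHE40 was higher with CoCl2 than with OD by 1.93 (SE 0.059, FDR 1.37e-20) on the log2 scale in HT-29. In Caco-2 that difference was 0.98 (SE 0.083, FDR 8.54e-10), just under the fold limit, and it passed the limit at 1.002 without CoCl2 replicate 2 and at 1.05 without OD replicate 1. The antisense gene BHLHE40-AS1, which shares 451 bases of BHLHE40 exons (12.8%), held at most 9 counts in a library, against at least 189 for BHLHE40.

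These values depend in part on how library sizes were scaled. TMM factors, which correct a library size for composition, were 0.765 to 0.774 with CoCl2 and 1.19 to 1.20 in the controls of HT-29, and 0.883 to 0.906 and 1.11 to 1.13 in Caco-2. Without these factors, on library size alone, the median over all genes shifted by -0.32 (CoCl2) and -0.15 (OD) in Caco-2, and the HT-29 shifts were -0.63 and -0.14. In Caco-2 the share of higher genes among all called genes was then 19.7% in place of 39.1% for CoCl2 and 23.3% in place of 37.9% for OD. The HT-29 shares were 17.2% in place of 42.1% and 43.4% in place of 55.7%. BHLHE40 remained called in all 4 comparisons. Genes whose direction or call changed are named with their values below.

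BHLHE41 (chr12:26120030-26125037, minus strand), the closest relative of BHLHE40, was barely counted in Caco-2 and abundant in HT-29. In Caco-2, BHLHE41 stood at 0.873, 0.402 and 0.415 CPM in the control libraries, 2.17, 2.33 and 2.43 CPM with CoCl2 and 0.874, 0.721 and 0.988 CPM with OD. The counts behind these values were 6 to 15 in the controls, 26 to 45 under CoCl2 and 12 to 14 under OD, and the control and OD libraries overlapped. In HT-29, BHLHE41 stood at 79.5, 75.8 and 74.5 CPM in the control libraries, 53.3, 58.6 and 56.6 CPM with CoCl2 and 142, 139.9 and 128 CPM with OD. The CoCl2 libraries were lower than all controls and the OD libraries higher. BHLHE41 rose with CoCl2 in Caco-2 by 1.99 (SE 0.36, FDR 3.89e-05) on the log2 scale, with a wide 95% interval of 1.25 to 2.74, while with OD the value was 0.56 (SE 0.41, FDR 0.264). In HT-29 it fell with CoCl2, at -0.44 (SE 0.056, FDR 5.89e-08), and rose with OD, at 0.84 (SE 0.052, FDR 1.11e-13). On library size alone the fall with CoCl2 was -1.08 and past the fold limit. In the deposited log2 table BHLHE41 is listed at 0 in Caco-2. SSPN, which shares 162 bases of BHLHE41 exons on the opposite strand, held 10 to 123 counts in HT-29 libraries, against 688 to 2738 for BHLHE41.

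Set per length, the relative levels of the pair turned over in HT-29. Levels per length are RPKM, recovered from the deposited log2(RPKM + 1). The ratio of BHLHE40 to BHLHE41 was 0.168, 0.198 and 0.193 in the control libraries, 6.47, 5.99 and 6.12 with CoCl2 and 0.724, 0.593 and 0.689 with OD. BHLHE41 thus exceeded BHLHE40 in every control and OD library, and BHLHE40 exceeded BHLHE41 in every CoCl2 library. The means were 0.186 ± 0.0158, 6.20 ± 0.245 and 0.669 ± 0.0682 (SD, n = 3), described without a test.

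PER1 (chr17:8140472-8156506, minus strand), a repressor that also responds to many acute signals, rose with CoCl2 in both lines and with OD in HT-29. In Caco-2, PER1 stood at 7.68, 8.12 and 7.62 CPM in the control libraries, 26.8, 25.2 and 25.7 CPM with CoCl2 and 8.21, 10.03 and 9.53 CPM with OD. The CoCl2 libraries stood far above the others, and the OD libraries lay just above the controls. In HT-29, PER1 stood at 17.7, 17.99 and 18.4 CPM in the control libraries, 85.3, 83.0 and 84.0 CPM with CoCl2 and 85.9, 78.0 and 86.4 CPM with OD. Both treated groups were well above control and overlapped each other. PER1 had a log2 fold change in Caco-2 of 1.73 (SE 0.12, FDR 8.01e-12) with CoCl2 and 0.25 (SE 0.13, FDR 0.118) with OD. In HT-29 it was 2.22 (SE 0.059, FDR 3.25e-22) with CoCl2 and 2.21 (SE 0.058, FDR 2.41e-21) with OD. The agents thus stood apart in Caco-2 and together in HT-29. CoCl2 exceeded OD by 1.48 (SE 0.12, FDR 3.21e-10) in Caco-2. In HT-29 the difference was 0.01 (SE 0.051, FDR 0.857), with a 95% interval of -0.09 to 0.11, but it was -0.49 on library size alone.

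PER2 (chr2:238244044-238290102, minus strand), the second Period repressor, fell with both agents in HT-29. In Caco-2, PER2 stood at 17.3, 16.8 and 16.8 CPM in the control libraries, 18.7, 19.98 and 21.6 CPM with CoCl2 and 20.6, 19.6 and 19.4 CPM with OD. The treated libraries lay slightly above the controls. In HT-29, PER2 stood at 35.9, 36.5 and 37.0 CPM in the control libraries, 17.6, 17.2 and 16.9 CPM with CoCl2 and 18.6, 19.3 and 20.4 CPM with OD. Both treated groups were far below the controls and apart from each other. PER2 had a log2 fold change in HT-29 of -1.08 (SE 0.069, FDR 6.25e-14) with CoCl2, or -1.71 on library size alone, and -0.91 (SE 0.064, FDR 1.51e-12) with OD, the latter under the fold limit, which it passed at -1.05 on library size alone. In Caco-2 it was 0.25 (SE 0.11, FDR 0.0444) with CoCl2, which turned to -0.07 on library size alone, and 0.23 (SE 0.11, FDR 0.077) with OD.

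PER3 (chr1:7784291-7845177, plus strand), the third Period gene, fell in HT-29 with CoCl2. In HT-29, PER3 stood at 13.4, 14.7 and 14.4 CPM in the control libraries, 3.96, 5.39 and 5.84 CPM with CoCl2 and 11.5, 12.8 and 11.02 CPM with OD. The CoCl2 libraries were the lowest, and OD lay between CoCl2 and control without overlap. In Caco-2, PER3 stood at 55.9, 51.1 and 51.5 CPM in the control libraries, 46.5, 44.8 and 49.8 CPM with CoCl2 and 55.5, 51.4 and 56.2 CPM with OD. The CoCl2 libraries there were just below the others. PER3 had a log2 fold change in HT-29 of -1.49 (SE 0.12, FDR 1.34e-11) with CoCl2 and -0.27 (SE 0.099, FDR 0.017) with OD. In Caco-2 it was -0.17 (SE 0.083, FDR 0.0803) with CoCl2 and 0.04 (SE 0.082, FDR 0.712) with OD. The Caco-2 value with CoCl2 passed the FDR on library size alone, at -0.49 (FDR 2.42e-05), and the OD value turned to -0.11. UTS2, which shares 868 bases of PER3 exons (10.7%) on the opposite strand, held at most 11 counts in a Caco-2 library and 0 in each HT-29 library.

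CRY1 (chr12:106991364-107093549, minus strand), a cryptochrome and among the strongest repressors of CLOCK and BMAL1, rose with both agents in both lines on the TMM scale, past the fold limit with CoCl2 in HT-29. In HT-29, CRY1 stood at 19.4, 21.1 and 20.8 CPM in the control libraries, 59.8, 63.6 and 60.9 CPM with CoCl2 and 37.5, 37.2 and 33.8 CPM with OD. The 3 groups were apart, with OD between control and CoCl2. In Caco-2, CRY1 stood at 17.1, 14.0 and 16.5 CPM in the control libraries, 22.2, 18.5 and 21.5 CPM with CoCl2 and 23.3, 21.1 and 18.5 CPM with OD. Here both treated groups lay above control and overlapped each other. CRY1 had a log2 fold change in HT-29 of 1.59 (SE 0.063, FDR 1.57e-18) with CoCl2, or 0.95 on library size alone, and 0.82 (SE 0.064, FDR 1.13e-11) with OD. In Caco-2 it was 0.38 (SE 0.12, FDR 0.00764) with CoCl2 and 0.40 (SE 0.12, FDR 0.00744) with OD. Neither Caco-2 value passed on library size alone, at 0.06 (FDR 0.651) and 0.25 (FDR 0.0851).

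CRY2 (chr11:45847118-45883248, plus strand), the second cryptochrome, had a higher CoCl2 level than CRY1 in both lines when set per length. In HT-29, CRY2 stood at 21.2, 21.2 and 21.0 CPM in the control libraries, 133, 129.6 and 121 CPM with CoCl2 and 57.2, 52.0 and 59.8 CPM with OD. The 3 groups were apart, and the controls spanned a narrow range. In Caco-2, CRY2 stood at 54.4, 59.1 and 56.6 CPM in the control libraries, 99.6, 96.1 and 102 CPM with CoCl2 and 60.9, 64.4 and 63.9 CPM with OD. The CoCl2 libraries were the highest and OD lay just above control. CRY2 had a log2 fold change in HT-29 of 2.60 (SE 0.060, FDR 1.39e-23) with CoCl2 and 1.42 (SE 0.062, FDR 8.12e-17) with OD. In Caco-2 it was 0.81 (SE 0.076, FDR 1.55e-09) with CoCl2, or 0.49 on library size alone, and 0.16 (SE 0.077, FDR 0.0933) with OD. CoCl2 exceeded OD by 1.18 in HT-29, or 0.69 on library size alone, and by 0.65 in Caco-2, with FDR 7.89e-17 and 1.26e-07.

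NR1D1 (chr17:40092793-40100589, minus strand), which encodes the haem-sensing receptor REV-ERBα, rose with each agent in each line on the TMM scale. In Caco-2, NR1D1 stood at 7.10, 5.84 and 7.20 CPM in the control libraries, 19.2, 19.1 and 22.4 CPM with CoCl2 and 19.8, 19.4 and 21.0 CPM with OD. Both treated groups were well above control and overlapped each other. In HT-29, NR1D1 stood at 24.8, 30.6 and 34.5 CPM in the control libraries, 50.8, 49.9 and 46.8 CPM with CoCl2 and 72.6, 57.2 and 61.0 CPM with OD. The controls were the lowest and the OD libraries the highest. NR1D1 had a log2 fold change in Caco-2 of 1.60 (SE 0.13, FDR 1.04e-10) with CoCl2 and 1.57 (SE 0.13, FDR 3.82e-10) with OD. In HT-29 it was 0.69 (SE 0.090, FDR 7.76e-08) with CoCl2 and 1.07 (SE 0.085, FDR 1.59e-11) with OD. The HT-29 value with CoCl2 was 0.06 (FDR 0.508) on library size alone and no longer passed. The OD value in HT-29 was close to the fold limit, at 0.93 on library size alone, 0.96 without control replicate 1 and 0.96 without OD replicate 1. Both Caco-2 values were well past it. The CoCl2 to OD difference was 0.02 (SE 0.11, FDR 0.896) in Caco-2, with a 95% interval of -0.22 to 0.26, and -0.37 (SE 0.084, FDR 2.63e-04) in HT-29. NR1D1 and THRA, a thyroid hormone receptor gene on the opposite strand, share 473 exon bases, 18% of the NR1D1 exons. The library kit kept strand, but whether counting used it is not stated, so reads in this overlap cannot be assigned with certainty. For THRA the Caco-2 log2 fold changes were -0.18 (CoCl2) and -0.01 (OD), and the HT-29 ones -1.62 and -0.06, so it did not rise in any of these 4 comparisons.

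DBP (chr19:48630030-48637379, minus strand), an activator whose gene is driven directly by CLOCK and BMAL1, moved in opposite directions with the agents in HT-29. In HT-29, DBP stood at 6.20, 5.69 and 4.47 CPM in the control libraries, 2.46, 3.11 and 2.47 CPM with CoCl2 and 24.5, 26.8 and 27.6 CPM with OD. All OD libraries were above the controls and all CoCl2 libraries below. In Caco-2, DBP stood at 15.5, 12.6 and 12.7 CPM in the control libraries, 18.1, 15.8 and 13.5 CPM with CoCl2 and 10.8, 10.7 and 13.5 CPM with OD. In this line the control libraries overlapped both treated groups. DBP had a log2 fold change in HT-29 of 2.30 (SE 0.10, FDR 1.50e-16) with OD and -0.98 (SE 0.17, FDR 6.39e-06) with CoCl2. The latter lay just under the fold limit and passed it at -1.61 on library size alone, -1.10 without CoCl2 replicate 2 and -1.13 without control replicate 3. The CoCl2 counts were low, at 30 to 45 per library. In HT-29, CoCl2 stood below OD by -3.28 (SE 0.13, FDR 3.65e-18) on the log2 scale. In Caco-2 the log2 fold change was 0.20 (SE 0.14, FDR 0.197) with CoCl2, or -0.12 on library size alone, and -0.23 (SE 0.14, FDR 0.18) with OD. The OD value passed the FDR on library size alone, at -0.38 (FDR 0.035). SPHK2, on the opposite strand, shares 661 bases of DBP exons (10.2%) and its own log2 fold changes in HT-29 were -1.16 (CoCl2) and -0.18 (OD), and those in Caco-2 -1.38 and -0.71. The part of these shared reads in the DBP values was not tested.

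CLOCK (chr4:55427903-55546909, minus strand), the activator that these repressors act on, fell with CoCl2 in both lines, under the fold limit. In Caco-2, CLOCK stood at 62.9, 58.6 and 59.0 CPM in the control libraries, 37.4, 49.0 and 45.4 CPM with CoCl2 and 63.1, 72.6 and 69.2 CPM with OD. The CoCl2 libraries were the lowest, and the OD libraries the highest. In HT-29, CLOCK stood at 65.9, 63.2 and 66.7 CPM in the control libraries, 53.6, 56.1 and 53.3 CPM with CoCl2 and 58.6, 59.0 and 54.9 CPM with OD. Both treated groups were below control and overlapped each other. CLOCK had log2 fold changes in Caco-2 of -0.45 (SE 0.093, FDR 1.74e-04) under CoCl2 and 0.18 (SE 0.091, FDR 0.0946) under OD. Those in HT-29 were -0.26 (SE 0.053, FDR 5.75e-05) and -0.18 (SE 0.051, FDR 0.00241). Scaled by library size alone, its log2 fold changes were -0.77 (Caco-2) and -0.90 (HT-29) under CoCl2, and -0.32 under OD in HT-29. None of these CLOCK values passed the fold limit.

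**Figure D2:**
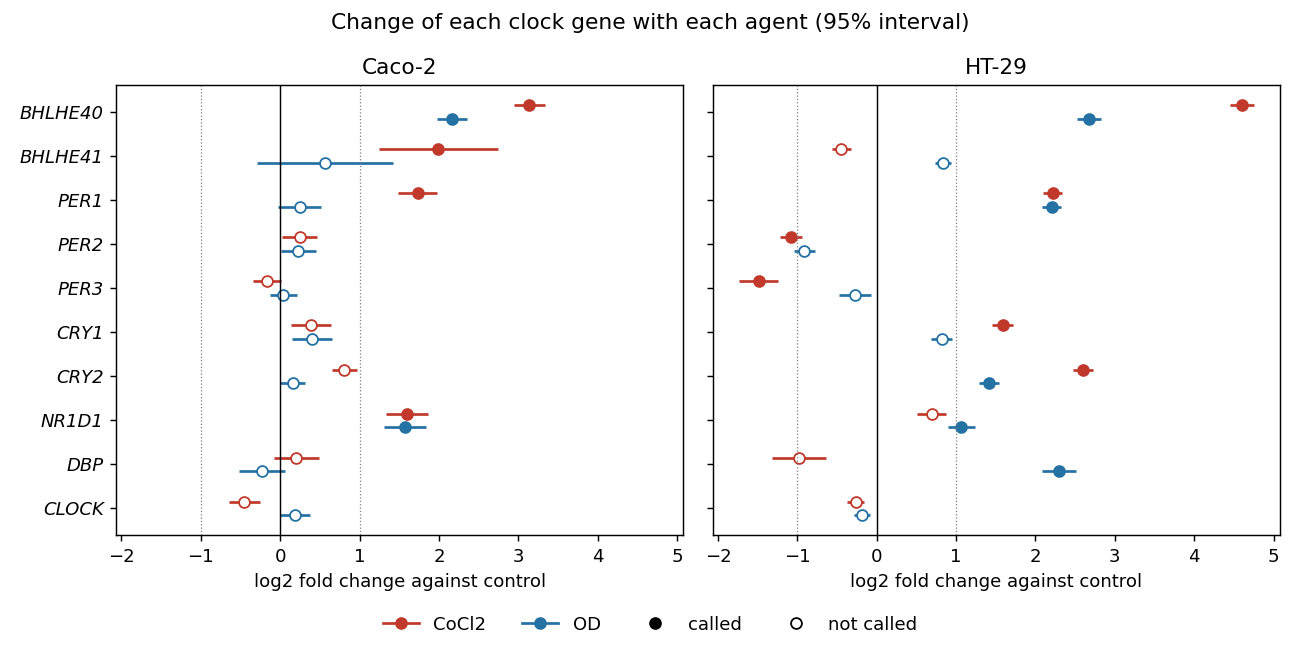
Log2 fold change of the 10 clock genes against control with CoCl2 (red) and OD (blue), in Caco-2 at the left and HT-29 at the right. Bars are 95% intervals, filled points are called genes, and dotted lines mark the fold limit of 1. BHLHE40 is filled in all 4 comparisons and CLOCK in none.

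Compared directly, CoCl2 and OD differed past the limits for BHLHE41 and PER1 in Caco-2, both higher with CoCl2, 2 of 10 against 11.7% of all genes and 5.21% higher. In HT-29 they differed for 5 of 10, against 29.9% of all genes. BHLHE40 and CRY2 were higher with CoCl2, as were 10.8% of all genes, and BHLHE41, PER3 and DBP were lower, as were 19.2%. By FDR alone, 7 genes passed in Caco-2 beside 49.6% of all genes, and 8 in HT-29 beside 77.7%. The BHLHE41 difference was 1.43 (SE 0.34, FDR 0.00118) in Caco-2 and -1.28 (SE 0.055, FDR 2.18e-17) in HT-29. For PER3 it was -1.22 (SE 0.13, FDR 2.01e-09) in HT-29 and -0.21 (SE 0.083, FDR 0.0415) in Caco-2. CRY1 was higher with CoCl2 in HT-29, at 0.77 (FDR 4.73e-12), while in Caco-2 the difference was -0.02 with an interval of -0.26 to 0.23. CLOCK was lower with CoCl2 than with OD in Caco-2, at -0.63 (FDR 4.18e-06), and the difference in HT-29 was -0.08 with an interval of -0.19 to 0.03. For PER2 the difference was 0.02 in Caco-2, with an interval of -0.20 to 0.24, and -0.17 in HT-29 (FDR 0.0387). On library size alone the HT-29 differences became -0.58 for CLOCK, -0.67 for PER2, 0.27 for CRY1 and -0.87 for NR1D1, all past the FDR, and that of PER3 in Caco-2 became -0.37. DBP was higher with CoCl2 than with OD in Caco-2, at 0.43 (FDR 0.0126), but at 0.26 (FDR 0.14) on library size alone.

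The clock genes also differed between the lines in the controls, which were kept for 24 h in DMSO medium. There, 8 of 10 were called between HT-29 and Caco-2, 4 in each direction, against 45.8% of 17921 genes, with 21.6% higher and 24.2% lower in HT-29. All 10 passed the FDR alone, as did 79.1% of all genes. BHLHE41 was higher in HT-29 by 7.11 (SE 0.14, FDR 6.50e-31) on the log2 scale, NR1D1 by 2.26 (SE 0.12, FDR 6.84e-18), PER1 by 1.30 and PER2 by 1.19. PER3 stood lower in HT-29, at -1.81, as did CRY2 at -1.33, DBP at -1.26 and BHLHE40 at -1.001. The BHLHE40 value is at the fold limit and kept its call in only 7 of 23 alternative analyses. There it ran from -1.10 to -0.92, with -0.99 on library size alone. CRY1 and CLOCK differed less, at 0.46 and 0.21.

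The responses of the lines were compared as the change in HT-29 minus the change in Caco-2, an interaction over all 18 libraries. For CoCl2, 8 of 10 genes were called, against 21.6% of all genes, whose median difference was -0.13. The difference was positive for 3 and negative for 5, beside 7.79% and 13.8% of all genes, and 9 passed the FDR alone beside 49.8%. BHLHE40 rose further in HT-29, with a difference of 1.36 (SE 0.12, FDR 2.69e-11), as did CRY2 with 1.68 (SE 0.096, FDR 3.23e-16) and CRY1 with 1.096 (SE 0.13, FDR 1.64e-08), the last at 0.89 on library size alone. The change was lower in HT-29 for BHLHE41, with -2.54 (SE 0.26, FDR 5.61e-10), PER2 with -1.44, PER3 with -1.43, DBP with -1.29 and NR1D1 with -1.01. The NR1D1 value was at the fold limit and kept its call in 16 of 23 alternative analyses, with -0.89 in DESeq2. PER1 differed by 0.38 (SE 0.12, FDR 0.00917), or 0.18 (FDR 0.234) on library size alone, and CLOCK by 0.08 (SE 0.11, FDR 0.591). For OD, 4 of 10 were called, against 15.2% of all genes, 3 positive beside 8.96% and 1 negative beside 6.24%. By FDR alone 9 passed, beside 42.9% of all genes. The called genes were DBP with 2.51 (SE 0.18, FDR 2.56e-13), PER1 with 1.94 (SE 0.13, FDR 4.23e-14), CRY2 with 1.24 (SE 0.098, FDR 1.84e-12) and PER2 with -1.15 (SE 0.12, FDR 5.47e-10). DBP, PER1 and CRY2 rose with OD in HT-29, whereas in Caco-2 none of them passed the FDR, at -0.23, 0.25 and 0.16. BHLHE40 differed by 0.49 (FDR 0.00146), under the fold limit.

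**Figure D3:**
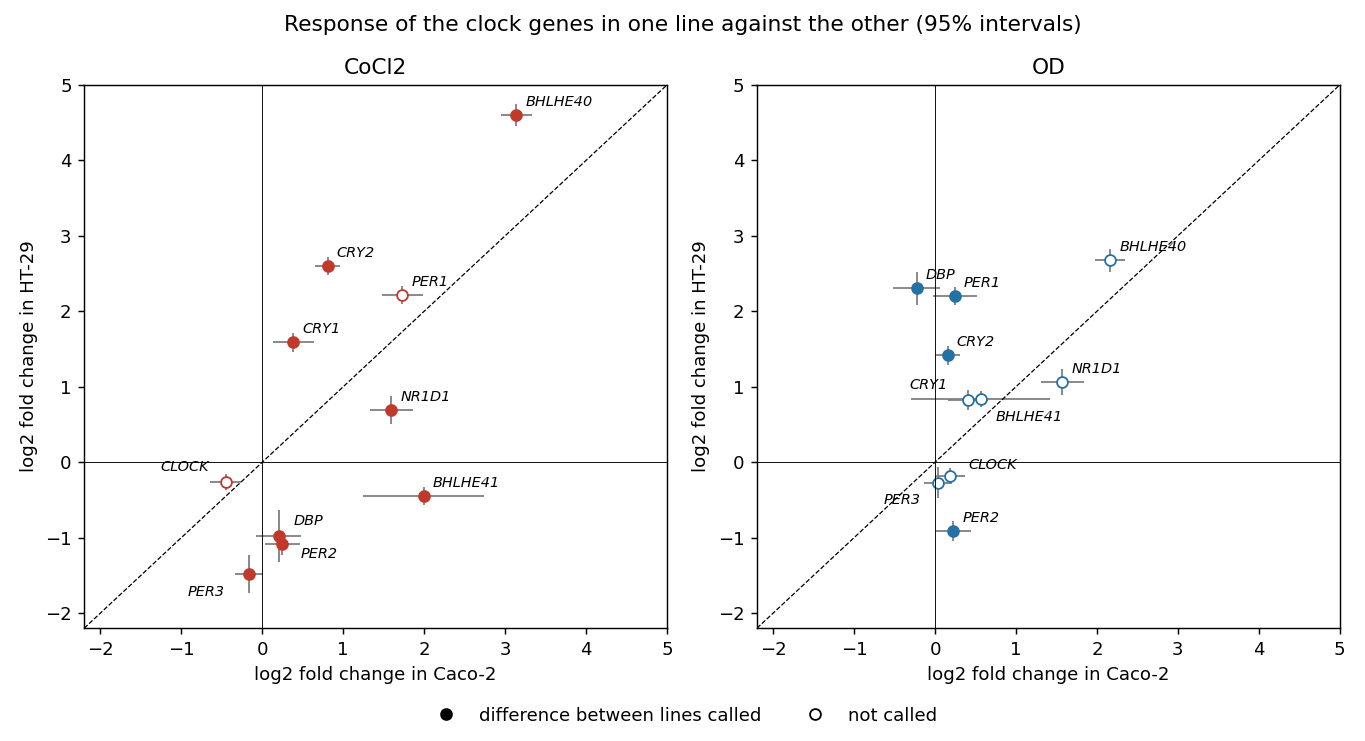
Log2 fold change against control in HT-29 plotted on that in Caco-2 for each clock gene, with CoCl2 at the left and OD at the right. Bars are 95% intervals, the dashed line marks equal responses, and filled points are genes whose difference between the lines was called, 8 with CoCl2 and 4 with OD.

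Levels were ranked between genes only per length, on the deposited log2(RPKM + 1) scale. In Caco-2 controls the order ran from CRY2 at 3.37 ± 0.0544 (SD, n = 3) and BHLHE40 at 3.18 ± 0.156 through PER3 at 2.94, CLOCK at 2.66, CRY1 at 2.13, NR1D1 at 1.85, PER2 at 1.82 and DBP at 1.65 to PER1 at 1.096. The libraries of BHLHE40 and PER3 overlapped, as did those of NR1D1 and PER2. In HT-29 controls BHLHE41 was first at 4.43 ± 0.0459, followed by NR1D1 at 3.66 and CLOCK at 2.77, with BHLHE40 the sixth at 2.27 and DBP the last at 0.90. No neighbours in that order overlapped. BHLHE40 was first with CoCl2 in both lines, at 6.13 ± 0.0701 in Caco-2 and 6.46 ± 0.00924 in HT-29. With OD it was first in Caco-2 at 5.18 ± 0.11, and in HT-29 it stood at 4.64 ± 0.15, below BHLHE41 at 5.21 ± 0.0789 and overlapping NR1D1 at 4.67 ± 0.170.

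**Figure D4:**
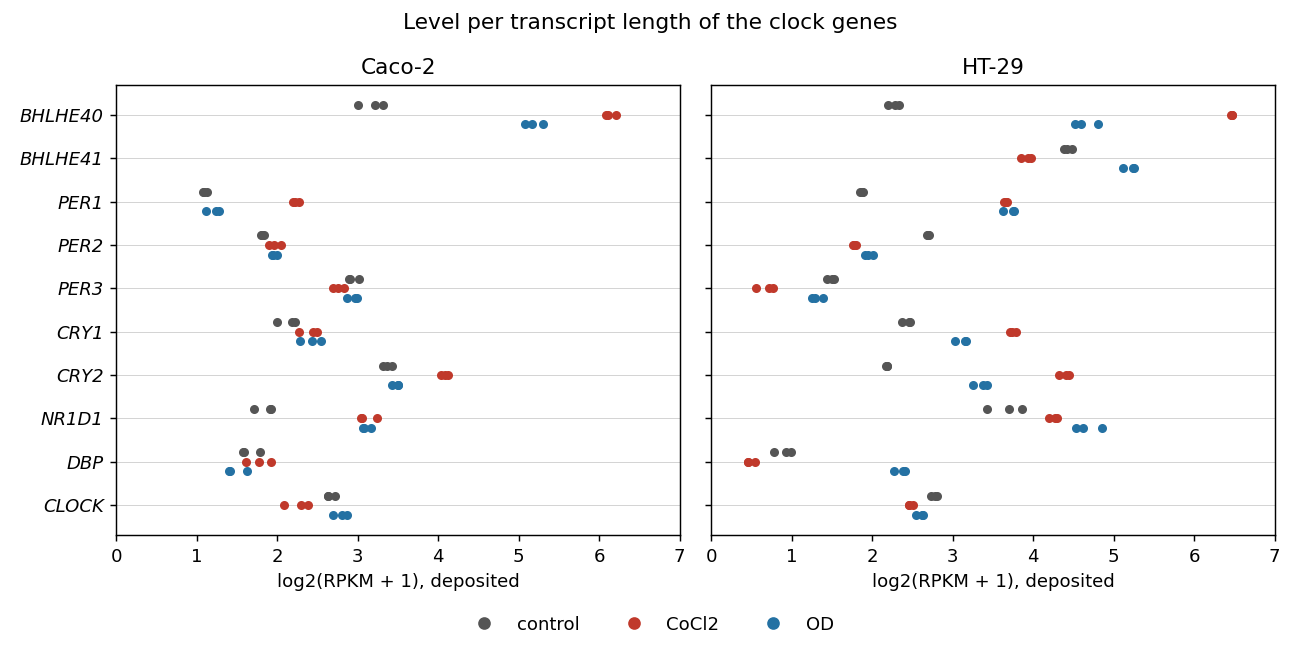
Levels per transcript length of the 10 clock genes in each library, as deposited log2(RPKM + 1), with control in grey, CoCl2 in red and OD in blue. BHLHE40 lies furthest to the right with CoCl2 in both lines. BHLHE41 has no points in Caco-2, where the deposited table lists it at 0.

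Over the 18 libraries, the log2 CPM of 10436 well-counted genes, centred on the mean of each line, was compared with that of the clock genes named on the study's list. The genes most like BHLHE40 were ASPH, RNF114, RAB11FIP5, WHAMM and SMAD3, with Pearson's r from 0.990 to 0.994. On library size alone RAB11FIP5 was the only one of these still among the first 5. The genes most like NR1D1 were RNF19B, NR4A1, SH3RF1, ETS1 and NFE2L1, with r from 0.953 to 0.973, and 4 of the 5 stayed among the first 5 on library size alone. The libraries form 6 groups, so these values largely describe group means.

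Of 26 other clock genes, Caco-2 had 22 past the filter and HT-29 had 24. With CoCl2 in Caco-2, 5 were called higher and 1 lower, beside 9.13% and 14.2% of all genes. With CoCl2 in HT-29, 7 were called higher and 3 lower, beside 17.4% and 23.9% of all genes. With OD in Caco-2, 1 was called higher and 1 lower, beside 4.43% and 7.27%, and in HT-29 OD gave 4 higher and 2 lower, beside 9.5% and 7.57%. Their median log2 fold change in Caco-2 was 0.36 under CoCl2 and 0.40 under OD, and the HT-29 medians were 0.53 and 0.38, where all genes had -0.029 and -0.023 (Caco-2) and -0.032 and 0.0057 (HT-29). ARNTL, whose product pairs with CLOCK, rose in all 4 comparisons, by 0.50 (CoCl2) and 0.76 (OD) in Caco-2 and, in the same order, by 0.79 and 0.77 in the other line, each under the fold limit. On library size alone its CoCl2 values were 0.17 and 0.15, the former no longer past the FDR. ARNTL2, a relative of ARNTL, instead fell under CoCl2 in HT-29, at -0.71, or -1.34 and called on library size alone. The CoCl2 value of ARNTL2 in Caco-2 was -0.23, not past the FDR, or -0.55 and past it on library size alone. OD raised ARNTL2 in each line, by 0.44 (Caco-2) and 0.73 (HT-29), under the fold limit. NPAS2, a relative of CLOCK, was called with OD in HT-29 only, at 1.07, which was 0.94 on library size alone.

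Among the factors that compete with NR1D1 or DBP for their sites, RORA rose under CoCl2 by 1.53 (Caco-2) and 2.99 (HT-29), and under OD by 0.97 and 0.82. NFIL3, a repressor at D-boxes, rose with CoCl2 by 1.46 and 1.54, and with OD by 0.91 and 0.60. HLF, a relative of DBP, was called lower in all 4 comparisons, at -2.01 and -4.31 with CoCl2 and -1.10 and -1.20 with OD. Its HT-29 counts were only 19 to 28 in control, 0 to 2 with CoCl2 and 6 to 12 with OD, so its fold changes there are imprecise. CIART, a further repressor of CLOCK and BMAL1, rose by 2.86 and 2.57 with CoCl2 and by 0.67 and 1.48 with OD. CIART was also low in HT-29, at 6 to 7 counts in control, 24 to 29 with CoCl2 and 15 to 22 with OD. NR1D2, the paralog of NR1D1, rose by 0.34 and 0.50 with CoCl2 and by 0.68 and 0.16 with OD. Its HT-29 value with CoCl2 turned to -0.13 on library size alone, and the values with CoCl2 in Caco-2 and OD in HT-29 became 0.01 and 0.03, neither past the FDR. Of 9 tested enzymes and partners acting on PER and CRY proteins, GSK3B was called higher and USP2 lower with CoCl2 in HT-29, at 1.07 and -1.11. USP2 had only 14 to 20 counts in these controls and 4 to 6 with CoCl2. None of the 9 was called in the other 3 comparisons with control. By FDR alone, 5 passed in Caco-2 with CoCl2 and 6 with OD, beside 64.7% and 50.4% of all genes. Another 5 passed in HT-29 with OD, beside 68.8%. With library size alone as the scale, RORA, HLF and CIART kept every call, whereas NFIL3 and GSK3B lost theirs with CoCl2 in HT-29, at 0.90 and 0.44, and USP2 gained one with CoCl2 in Caco-2, at -1.24. NOCT, a clock output, was called with OD in Caco-2 at 1.01 and lost that call at 0.86.

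**Figure D5:**
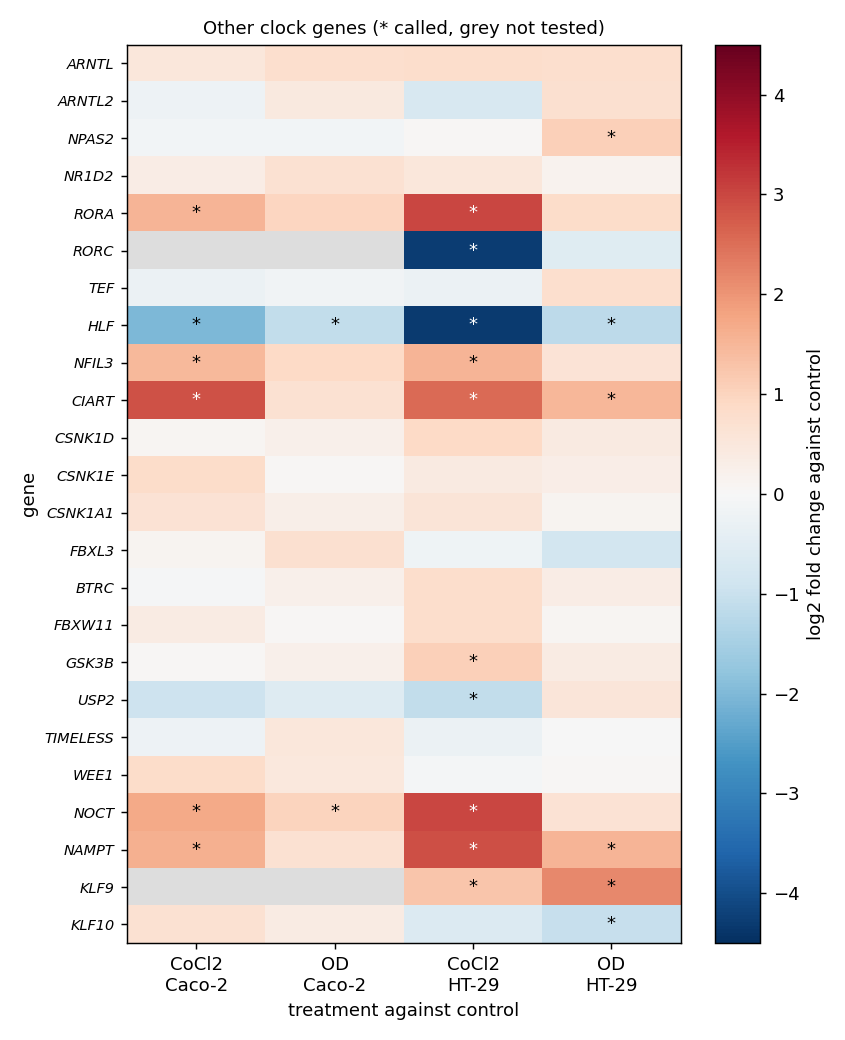
Log2 fold change against control of the other clock genes tested in at least 1 line, for CoCl2 and OD in each line, on a colour scale from -4.5 to 4.5. Stars mark called genes and grey marks genes not tested in that line. HLF is blue with a star in all 4 columns, on 0 to 28 counts per library in HT-29.

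Cell identity was checked on marker genes. The 6 epithelial markers were counted in every library, with KRT8 at 16059 to 66001 counts. Among them VIL1 and CDX2 were called lower with CoCl2 in HT-29, at -2.62 and -1.46. The other 4 rose there past the FDR, under the fold limit, beside 82.8% of all genes passing it in either direction. KRT8 and KRT18 were called higher with CoCl2 in Caco-2, at 1.06 and 1.35, and VIL1 fell, at -0.845. VIL1 was the 1 called lower with OD in HT-29, with group means of 205 CPM in control and 92.5 with OD. Of 6 enterocyte markers, ALPI and APOA4 had at least 193 and 143 counts in each Caco-2 library and at most 2 in each HT-29 library. SI, FABP1 and ANPEP were counted in both lines, at 1131 to 4759, 1648 to 4497 and 184 to 331 counts in the former line and 90 to 350, 91 to 447 and 13 to 67 in the latter, and FABP2 was low in both, at 3 to 27 and 1 to 14. The summed enterocyte markers in Caco-2 were 516.8 to 609.9 CPM in control, 318 to 366 under CoCl2 and 553 to 580.2 under OD. APOA4 did not follow this sum and was called higher there, at 2.22 with CoCl2 and 1.31 with OD. The other 5 fell past the FDR with CoCl2 in Caco-2, of which SI (-1.33) and FABP2 (-1.27) were called. The HT-29 sums were 33.0 to 35.6, 16.0 to 18.4 and 18.7 to 21.3 CPM, so both treated groups were below control there. The 3 goblet cell markers summed to 36.1 to 46.0 CPM in control, 21.7 to 23.9 under CoCl2 and 26.2 to 29.2 under OD in Caco-2, and to 32.1 to 36.4, 15.4 to 20.8 and 17.9 to 21.5 CPM in HT-29, where MUC2 and SPINK4 were called lower with CoCl2, at -1.03 and -4.51. Of 6 markers of other cell types, PTPRC (leukocytes) had 2 counts or fewer in every library, whereas COL1A1 had 202 to 405 in Caco-2 and 23 to 116 in HT-29. PECAM1 (endothelium) had 28 to 172 and 3 to 35, and was called lower with CoCl2 in Caco-2, at -2.15. CD3E, VWF and COL3A1 had at most 14, 17 and 19 counts in a Caco-2 library and 1, 4 and 3 in an HT-29 library. The summed level of the 6 in Caco-2 was 33.6 to 40.6 CPM in control, 19.3 to 22.3 under CoCl2 and 22.6 to 27.9 under OD, whereas in HT-29 it was 2.74 to 3.87, 2.46 to 3.46 and 6.21 to 7.40 CPM. The part of these shifts in the clock gene values was not tested.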

How the data were processed

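Of 36 libraries, the 18 mRNA libraries were used. The authors deposited a table of raw counts by gene and a table of log2 values. By the study's methods and the submitters' processing notes, single-end reads were trimmed with cutadapt 2.10, aligned with STAR 2.7.5b to GRCh38 and counted on GENCODE genes. The counting tool and its use of strand are not given in the sources used here. The deposited log2 values matched log2(RPKM + 1) from the counts with TMM scaling within each line and a constant implied length per gene. This was checked on 12102 genes in Caco-2 and 11367 in HT-29, all listed above 0 with at least 20 counts per library. Some genes with counts are listed at 0, such as BHLHE41 in Caco-2.

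Each line was fitted alone over 9 libraries in edgeR 4.0.16 (R 4.3.3, TMM, filterByExpr, two-sided quasi-likelihood F test), and all 18 together for interactions and for controls between lines. Calls required an FDR under 0.05 and an absolute log2 fold change over 1. CPM are on TMM-scaled library sizes within a line. Scripts were tested on simulated data. P-values rest on the spread within groups of 3 libraries, pooled over all groups of a fit, and 3 counts equal 0.134 to 0.232 CPM. Alternatives included DESeq2 1.42.0, limma 3.58.1 (limma-trend), RLE scaling, library size alone, no filter, a replicate block and leaving out each library. The genes and lists were chosen with earlier results of these data known. Named genes are the 10 clock genes, the listed other clock genes and markers, and the 5 genes most like BHLHE40 and NR1D1 among genes with a mean count of at least 100.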

Additional observations from a re-analysis of the deposited data

Results flagged for a closer look

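The response to CoCl2 differed between HT-29 and Caco-2 past the FDR and fold limits of the interaction test for 8 of the 10 clock genes, against 21.6% of all genes. As HT-29 minus Caco-2 on the log2 scale, the difference was 1.36 for BHLHE40, 1.68 for CRY2 and 1.096 for CRY1, and -2.54 for BHLHE41, -1.44 for PER2, -1.43 for PER3, -1.29 for DBP and -1.01 for NR1D1. BHLHE41 and PER2 rose in Caco-2 and fell in HT-29, although PER2 in Caco-2 turned to -0.073 on library size alone. The response to OD differed for 4 of 10, against 15.2% of all genes: for DBP by 2.51, for PER1 by 1.94, for CRY2 by 1.24 and for PER2 by -1.15. Line and culture state cannot be told apart in these differences.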

How the results depend on the processing

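Over 9 comparisons of 10 genes, 44 results were called, where the share of all genes called ran from 11.7% to 45.8% by comparison. All 44 kept their sign under every alternative run with the fold limit in place, and 35 were called under each of them, a count not made over all genes. The 9 others lost the call in at least 1, as did CRY1 with CoCl2 in HT-29 on library size alone (0.95), CRY1 in the CoCl2 interaction (0.89), and PER2 and PER3 in limma-trend (-0.92 and -0.81 with CoCl2 in HT-29). The least stable calls were BHLHE40 in the controls, kept in 7 of 23 alternatives, and NR1D1 in the CoCl2 interaction, kept in 16 of 23. Without the fold limit the count of called clock genes became, in Caco-2, 8 (64.7% of all genes) with CoCl2 and 3 (50.4%) with OD, 10 with each agent in HT-29 (82.8% with CoCl2 and 68.8% with OD), 7 (49.6%) and 8 (77.7%) for CoCl2 against OD in Caco-2 and HT-29, 9 for each interaction (49.8% for CoCl2 and 42.9% for OD) and 10 (79.1%) for the controls. In limma-trend it became 1 for CoCl2 against OD in Caco-2, where the deposited values list BHLHE41 at 0 and gave no value for it. Limma-trend also called fewer genes in all: 1098 against 3747 with CoCl2, 381 against 1876 with OD and 341 against 1868 between the agents in Caco-2, and 2520 against 6524, 744 against 2699 and 1455 against 4734 in HT-29. On library size alone the share of higher calls fell from 44.7% to 28.3% (Caco-2) and from 36.0% to 12.9% (HT-29) between the agents, and from 36.0% to 23.2% for the CoCl2 interaction.

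Signs turned for 9 results, none of them called. On library size alone these were PER2 (-0.073) and DBP (-0.12) with CoCl2 and PER3 (-0.11) with OD in Caco-2, PER2 (-0.15) and NR1D1 (-0.15) between the agents in Caco-2, PER1 (-0.49) between the agents in HT-29 and CLOCK (-0.13) in the CoCl2 interaction. With no filter they were PER2 (-0.0082) and NR1D1 (-0.0082) between the agents in Caco-2 and PER1 (-0.043) in HT-29, and PER1 was also -0.083 in 1 fit over all libraries and -0.051 in limma-trend. Leaving out 1 library gave, between the agents, -0.038 to 0.067 for PER2, -0.10 to 0.071 for CRY1 and -0.063 to 0.064 for NR1D1 in Caco-2 and -0.038 to 0.035 for PER1 in HT-29, -0.018 to 0.16 for CLOCK in the CoCl2 interaction, and -0.23 to 0.46 for BHLHE41 in the OD interaction. The cause was not tested. Same-numbered replicates did not deviate together (r from -0.055 to 0.068), so no shared effect of a replicate number was seen. Whether samples were handled in pairs cannot be told from these values. A replicate block left 4, 2, 2, 6, 5, 5 and 4 called clock genes for the Caco-2, HT-29 and OD interaction comparisons, and 7 in place of 8 for the CoCl2 interaction and the controls, losing NR1D1 (-0.996) and BHLHE40 (-0.98). Over all genes the block left 3737, 1891 and 1842 calls of 16034 in Caco-2, and 6520, 2700 and 4726 of 15812 in HT-29. Of 17921 genes it left 2673 calls for the OD interaction, 3805 for the CoCl2 interaction and 7901 for the controls.

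BHLHE41 in Caco-2 rests on 6 to 45 counts per library, so its fold changes there are imprecise.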
